A study of Mus musculus with 11 samples.

Results

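The genes described here are 10 transcription factor genes of the lung mesenchyme: the T-box genes Tbx2, Tbx3, Tbx4 and Tbx5, the forkhead genes Foxf1 and Foxf2, and the Hox genes Hoxa4, Hoxa5, Hoxb5 and Hoxb6. They were picked by name, for what is known of lung development, with earlier results of these data known, and make up 10 of the 24411 rows of a gene count table. All 10 were among the 16011 genes that passed the filter on low counts and were tested. The table holds bulk RNA-seq of mesenchymal cells that were sorted from lungs of C57BL6 mice as negative for EpCAM, CD45 and CD31 (surface proteins of epithelial, haematopoietic and endothelial cells). The mice had a pneumonectomy (PNX), surgery that removes lung tissue and is followed by growth of the remaining lung, or a sham operation. The 4 groups were sham at day 7 (n = 3), PNX at day 7 (n = 3), sham at day 14 (n = 2) and PNX at day 14 (n = 3). No transgene or drug is given for any group, and the sort was the same for all. The labels used here give neither age nor sex, and they do not say whether replicates were separate animals or pools, so that p-values reflect only how far the libraries of a group differed, and part of that may be technical.

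In the embryonic lung, T-box factors bind DNA through a shared domain. Tbx4 and Tbx5 act in the mesenchyme upstream of Fgf10, a growth factor for the epithelium, and Wnt2. Tbx2 and Tbx3 are mainly repressors that keep mesenchymal cells dividing, in part by repressing cell cycle inhibitors. Foxf1 and Foxf2 are switched on in the mesenchyme by hedgehog signals from the epithelium. Hox genes lie in clusters, and their order along the chromosome follows the order of the body levels at which they are used; Hoxa5 is needed for normal lung and airway formation.

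Promoter sequence was held in the RefSeq table (GRCm38.p6) for 3 of the 10 genes, Tbx4, Foxf2 and Hoxa5. Each window runs from 250 bases before to 50 bases after the start site. The sequences for Tbx4, which had the smallest p-value of the 10 genes in the mean of both days, and for Hoxa5, which had the highest level per kilobase, are given because they differ in their number of CpG. They read 5′ to 3′ on the gene's own strand, with each CpG in capitals.
Tbx4 (chr11:85896515-85896814, plus strand): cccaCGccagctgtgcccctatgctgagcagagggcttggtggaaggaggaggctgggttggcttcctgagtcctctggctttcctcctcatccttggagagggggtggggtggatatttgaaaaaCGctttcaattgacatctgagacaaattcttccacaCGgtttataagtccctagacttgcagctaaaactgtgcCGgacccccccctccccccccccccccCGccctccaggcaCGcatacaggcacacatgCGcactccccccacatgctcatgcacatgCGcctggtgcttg
Hoxa5 (chr6:52204538-52204837, minus strand): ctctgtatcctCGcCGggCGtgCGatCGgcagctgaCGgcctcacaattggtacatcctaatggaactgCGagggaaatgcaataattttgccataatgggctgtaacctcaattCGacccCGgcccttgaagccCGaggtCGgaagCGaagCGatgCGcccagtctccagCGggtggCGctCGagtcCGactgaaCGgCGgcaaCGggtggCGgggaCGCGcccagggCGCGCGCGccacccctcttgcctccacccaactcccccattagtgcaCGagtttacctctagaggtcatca
The Tbx4 window held 8 CpG and 59.0% G or C, close to the median of 7 CpG over 32851 windows of that length. The Hoxa5 window held 29 CpG and 61.7% G or C, and the Foxf2 window (chr13:31625566-31625865, plus strand) held 27 CpG and 71.3%. The Tbx4 start site of this table lies 10343 bases inside the gene as GENCODE M21 draws it, so that the window belongs to an inner start, whereas the other 2 starts match the GENCODE gene ends. The 4 motifs searched, on both strands, are not contained in each other. TATAAA was found 85 bases before the Tbx4 start on the reverse strand and occurs in 13.62% of all windows. CCAAT was found 204 bases before the Hoxa5 start on the reverse strand and occurs in 37.41% of windows. The T-box half-site GGTGTGA (3.98% of windows) and the GLI site TGGGTGGTC (0.25%) were in none of the 3 windows.

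The members are neighbours in pairs on mm10 (GRCm38). On chromosome 11, Tbx2 (85832551 to 85841948) lies 44473 bases before Tbx4 (85886422 to 85916097). On chromosome 5, Tbx3 (119670669 to 119684724) lies 147943 bases before Tbx5 (119832668 to 119885219). Hoxa4 (52189671 to 52191753) and Hoxa5 (52201754 to 52204587) lie 10000 bases apart on the minus strand of chromosome 6, and Hoxb6 (96292476 to 96301569) and Hoxb5 (96303336 to 96306121) lie 1766 bases apart on the plus strand of chromosome 11. Foxf1 is at 121084386 to 121088144 on chromosome 8, 1275 bases from the divergent long noncoding RNA gene Fendrr, and Foxf2 is at 31625816 to 31631403 on chromosome 13. Hoxb5 shares 100 exonic bases with the antisense gene Hoxb5os, which has a row of its own. Tbx3, Foxf1, Foxf2 and Hoxa4 share 98 to 255 exonic bases with antisense transcripts that have no row. Whether counting used strand is not given in the sources used here, so reads in those shared bases cannot be told apart.

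Libraries held 2539628 to 9008592 counts. The sort label was checked against marker genes. The summed level of 8 mesenchyme markers was 8213 to 26843 CPM (counts scaled to library size with TMM factors). At day 7 it was 16261 to 26843 CPM in sham and 15683 to 22745 CPM in PNX libraries. At day 14 it was 8213 to 15846 CPM in sham and 18885 to 24931 CPM in PNX libraries, without overlap. The part of this difference in the members' day 14 values was not tested. None of the genes of the gate was at 0: Epcam was at 0.58 to 13.4 CPM, Ptprc (CD45) at 5.26 to 51.1 CPM and Pecam1 (CD31) at 11.05 to 247 CPM. The 7 epithelial markers had their lowest sum, 122 CPM, in replicate 3 of the day 7 sham group. Their highest was 16431 CPM in replicate 2 of the day 14 PNX group. Sftpc, the surfactant gene of alveolar type 2 cells, was at 23.5 CPM in the former library and 15517 CPM in the latter. The 4 haemoglobin genes summed to 252 to 79625 CPM. The summed level of 1455 olfactory and vomeronasal receptor genes, which should be silent in lung, was 89.9 to 1606 CPM and was highest in replicate 1 of the day 14 sham group and in replicate 2 of both day 7 groups. In bulk libraries, fewer cells of a type and less RNA per cell cannot be told apart.

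All 10 genes were detected in every library, with 10 to 882 counts per gene and library. Per kilobase of exon, averaged over 11 libraries, Hoxa5 was highest at 25.8 CPM per kb, followed by Foxf1 at 21.5, Hoxb5 at 13.8, Tbx2 at 13.5, Tbx5 at 7.20, Foxf2 at 6.34, Tbx3 at 6.14, Hoxb6 at 4.28, Hoxa4 at 3.58 and Tbx4 at 3.00 CPM per kb. As a yardstick, 99% of 1443 receptor genes lay below 0.837 CPM per kb and their median was 0.0681. The means of all 10 genes stood above that line. In PNX day 14 replicate 3, Tbx4 was under it, at 0.661 CPM per kb.

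Hoxa5 and Foxf1 led the order in each group, and few steps in it were sharp. In sham lungs at day 7 the mean levels per kb (± SD, n = 3) ran from Hoxa5 (29.3 ± 3.28) through Foxf1 (20.8 ± 6.28), Tbx2 (17.2 ± 10.1), Hoxb5 (16.6 ± 1.16), Tbx3 (12.8 ± 8.03), Tbx5 (10.7 ± 0.38), Hoxb6 (6.71 ± 1.77), Foxf2 (6.45 ± 2.24) and Tbx4 (4.61 ± 0.75) to Hoxa4 (2.67 ± 1.38). Only 2 of the 9 neighbouring pairs had ranges that did not overlap there, Tbx5 above Hoxb6 and Tbx4 above Hoxa4. After PNX at day 14, 4 of the 9 pairs were apart: Foxf1 (19.7 ± 0.78 CPM per kb, n = 3) was above Hoxb5 (13.6 ± 1.63), Hoxb5 above Tbx2 (10.2 ± 2.14), Tbx2 above Tbx5 (5.36 ± 0.10), and Hoxb6 (3.09 ± 0.55) above Tbx4 (1.31 ± 0.72), the last in the order. In both PNX day 7 and sham day 14 libraries, 1 of the 9 pairs was apart, Hoxb5 above the gene next below it.

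**Figure D1:**
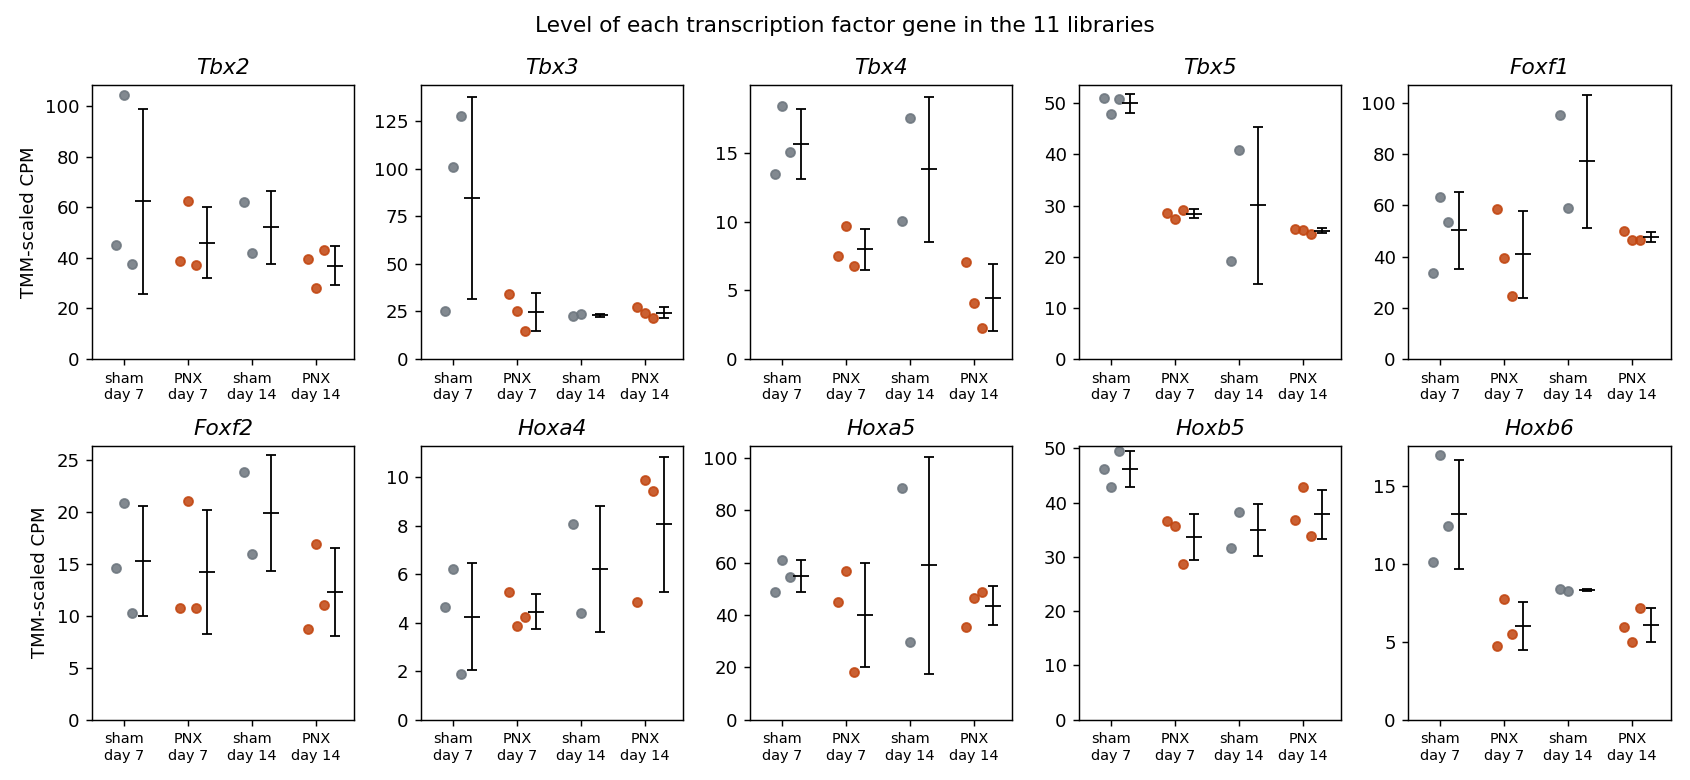
Level of each of the 10 genes in each library, in TMM-scaled CPM, 1 panel per gene, by group. Points are libraries, and bars are group means ± SD. The Tbx4 and Hoxb6 points of all 6 PNX libraries lie below those of all 5 sham libraries, and Tbx3 is high in 2 sham day 7 libraries at 101 and 128 CPM.

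After PNX, 9 of the 10 genes were lower at day 7. At day 14 it was 7, and 9 when the days were averaged. None of the 10 passed an adjusted p of 0.05 in edgeR's quasi-likelihood test. Among all tested genes, 48.3%, 54.8% and 53.4% were lower in these comparisons, and 0.0375%, 0.00625% and 0.194% passed. The members' median log2 differences were, in that order, -0.46, -0.44 and -0.48, against 0.03, -0.07 and -0.04 for all genes. At an unadjusted p under 0.05, 4 members were lower at day 7 (Tbx3, Tbx4, Tbx5 and Hoxb6, where 8.07% of all genes were), 1 at day 14 (Tbx4, 3.63%) and the same 4 as at day 7 in the mean (6.37%). DESeq2 called 1 member at day 7 (Tbx3), 0 at day 14 and 1 in the mean (Tbx4). Of all genes it called 457 at day 7 and 304 in the mean. The limma voom fit with sample weights called 2 members at day 7 (Tbx5 and Hoxb6) and 0 in the other 2 comparisons. Of all genes it called 826 at day 7. At day 7, between 7 and 10 members were lower under every alternative run, at day 14 between 6 and 9, and in the mean 8 or 9; without the 3 libraries of highest receptor signal, 9, 6 and 9 were lower. The median standard error over all genes was 0.44 on the log2 scale at day 7 and 0.50 at day 14. In data simulated for day 7, changes were planted only in genes above a minimum mean level. Of genes given a 2-fold increase 12% were recovered, against 80% at a 4-fold increase and 74% at a 4-fold decrease. A 2-fold increase was thus rarely detectable at this replication, and a 2-fold decrease was not simulated.

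**Figure D2:**
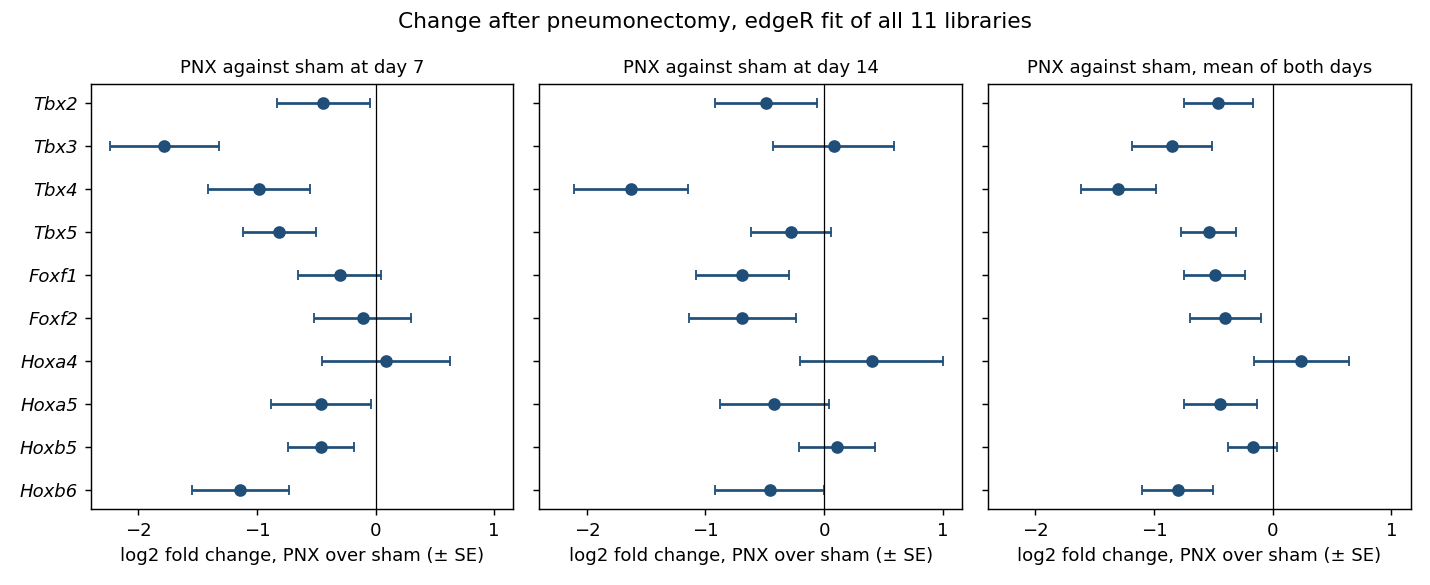
Log2 difference of PNX against sham for each gene, for either day and averaged over the days, with bars of 1 standard error from edgeR. Most points lie left of 0, from -1.78 for Tbx3 at day 7 to 0.40 for Hoxa4 at day 14, and no gene passes an adjusted p of 0.05.

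Tbx4, the T-box gene most closely tied to lung mesenchyme, was lower in each PNX library than in any sham library. Sham libraries at day 7 had 13.5, 18.5 and 15.1 CPM, and PNX libraries at day 7 had 7.48, 9.69 and 6.81 CPM. At day 14 the sham libraries had 10.1 and 17.6 CPM and the PNX libraries 7.09, 4.08 and 2.25 CPM. The groups did not overlap at either day, and the highest PNX value, 9.69 CPM, lay just under the lowest sham value, 10.1 CPM. Of all tested genes, 0.443% had all 6 PNX libraries below all 5 sham libraries. Of the members, Tbx4 and Hoxb6 did, and with scaling by total counts only Tbx4 (0.34% of all genes). The log2 difference was -0.98 ± 0.43 (SE) at day 7 (adjusted p = 0.351) and -1.63 ± 0.48 at day 14 (0.386). Averaged over the days it was -1.30 ± 0.32, a 2.47-fold lower level that did not pass the test (unadjusted p = 0.000803, adjusted p = 0.0966 with edgeR). DESeq2 gave -1.32 with an adjusted p of 0.0162, and over all alternatives the mean difference was -1.54 to -1.02 with adjusted p between 0.0162 and 0.270. Without sham day 14 replicate 2, the day 14 difference was -1.02. The counts behind these values were 10 to 144, and the lowest, 10 counts in PNX day 14 replicate 3, has an exact Poisson 95% interval of 4.795 to 18.4, for counting error only.

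Within each day, the summed level of 6 alveolar fibroblast markers was apart in the same direction as Tbx4. It was 4636 to 6404 CPM in sham and 2494 to 3179 CPM in PNX libraries at day 7, and 6043 to 8481 CPM in sham and 2657 to 5405 CPM in PNX libraries at day 14. All 6 markers were lower at both days, with median log2 differences of -0.94 and -0.98, none passing the test, and none was at 0 in every library. With both days joined the sums overlapped, unlike Tbx4. PNX day 14 replicate 2, at 5405 CPM, was above sham day 7 replicate 3, at 4636 CPM. Log2 Tbx4 and the log2 sum of these markers had a Pearson r of 0.55, a description only. The part of these markers in the Tbx4 values was not tested. The 6 adventitial fibroblast markers summed to 5523 to 15829 CPM in sham and 4762 to 5110 CPM in PNX libraries at day 7, but to 4316 to 6280 CPM in sham and 6305 to 8803 CPM in PNX libraries at day 14, the opposite order.

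Tbx5, which is also needed in the heart and forelimb, had the tightest values of the set at day 7. Sham libraries had 51.0, 47.9 and 50.9 CPM and PNX libraries 28.6, 27.4 and 29.2 CPM, so the groups were far apart relative to their spread. At day 14 the sham libraries were split at 19.1 and 40.9 CPM, on either side of the PNX libraries at 25.4, 25.3 and 24.5 CPM. PNX minus sham, on the log2 scale, was -0.81 ± 0.31 at day 7 (adjusted p = 0.256) and -0.28 ± 0.34 at day 14 (0.885). With voom's sample weights the day 7 difference was -0.82 with an adjusted p of 0.0469. At day 14 the sign turned on 1 library: without sham day 14 replicate 2 it was 0.53. The Tbx4 to Tbx5 count ratio ran from 0.09 to 0.53 over the libraries.

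Tbx3 had the largest day 7 difference of the 10 genes and the widest range, 14.5 to 128 CPM. Sham libraries at day 7 had 25.3, 101 and 128 CPM, and PNX libraries had 34.3, 25.5 and 14.5 CPM. Sham day 7 replicate 1 thus lay within the PNX range, and the groups overlapped. At day 14 all libraries were between 21.6 and 27.4 CPM, with sham at 22.5 and 23.5 CPM and PNX at 27.4, 24.01 and 21.6 CPM. The log2 difference was -1.78 ± 0.46 at day 7 (unadjusted p = 0.00121, adjusted p = 0.110) and 0.08 ± 0.51 at day 14 (adjusted p = 0.980; -0.11 with total counts). Without sham day 7 replicate 1 the day 7 difference was -2.21 with an adjusted p of 0.00601, with DESeq2 it was -1.76 (0.0154), and with no filter on low counts -1.86 (0.0292). These were the 3 of 23 alternatives that passed; it was -1.35 (0.592) without sham day 7 replicate 3 and -1.20 (0.0969) with voom. The difference between the 2 days' PNX effects was 1.85 ± 0.69 and did not pass either (unadjusted p = 0.0156, adjusted p = 0.459). In sham lungs, Tbx3 was lower at day 14 than at day 7 by a log2 difference of -1.88 ± 0.54 (adjusted p = 0.126). Of 23 alternatives 2 passed, DESeq2 (0.0222) and the fit without sham day 7 replicate 1 (0.0120), and the adjusted p was up to 0.791 in the others; without sham day 7 replicate 3 the difference was -1.45 (0.492). The same 3 sham day 7 libraries enter the PNX comparison and this one.

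Library base composition was set beside the Tbx3 values. The rank correlation of gene level deviation with GC percent, a description over genes in a library, was 0.44 and 0.23 in the sham day 7 libraries with high Tbx3 and -0.12 in the other; it was 0.08, 0.20 and -0.16 after PNX at day 7. At day 14 the correlation was 0.08 and -0.29 in sham and -0.21, -0.25 and -0.25 in PNX libraries. Tbx3 was at 21.6 to 27.4 CPM in these. Over 11 libraries, log2 Tbx3 levels and the correlation had a Pearson r of 0.74, a description only. With a GC offset the Tbx3 difference at day 7 was -1.55 (adjusted p = 0.172 with edgeR). Whether base composition had a part in the Tbx3 values was not tested.

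Tbx2, the neighbour of Tbx4, is G and C rich (63.2% of its exons). It was at 45.0, 104 and 37.4 CPM in sham and 38.8, 62.3 and 37.0 CPM in PNX libraries at day 7. At day 14 it was at 62.1 and 41.8 CPM in sham and 39.4, 28.2 and 43.2 CPM in PNX libraries. The groups overlapped at both days, and the log2 differences were -0.44 ± 0.39 (adjusted p = 0.719) and -0.49 ± 0.43 (0.837). The day 7 difference was 0.07 with a GC offset and 0.11 without sham day 7 replicate 2, the library with the highest Tbx2 and a GC correlation of 0.44.

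Foxf1, the main forkhead factor of lung mesenchyme, was at 33.6, 63.4 and 53.5 CPM in sham and 58.5, 39.3 and 24.7 CPM in PNX libraries at day 7, and the groups overlapped. At day 14 both sham libraries, at 95.4 and 58.8 CPM, were above the PNX libraries at 49.8, 46.6 and 46.5 CPM. Its log2 difference was -0.30 ± 0.35 at day 7 (adjusted p = 0.789) and -0.69 ± 0.39 at day 14 (0.761). Separation of this kind at day 14 was found for 8.28% of all genes as lower. The members with it were Tbx4, Foxf1 and Hoxb6, joined by Foxf2 with total counts (11.4% of all genes). Foxf1 is also expressed by lung endothelium. At day 7, 8 endothelial markers summed to 197, 581 and 150 CPM in sham and 944, 454 and 157 CPM in PNX libraries, with overlap. At day 14 they summed to 573 and 404 CPM in sham and 355, 672 and 705 CPM in PNX libraries, with overlap. Over the 2 days, log2 Foxf1 and the log2 endothelial sum had a Pearson r of 0.55, a description only. With the haematopoietic marker sum r was 0.60, and with the mesenchyme marker sum -0.64. The part of any of these markers in the Foxf1 values was not tested.

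Foxf2, its relative, was at 14.6, 20.8 and 10.3 CPM in sham and 10.7, 21.04 and 10.8 CPM in PNX libraries at day 7. At day 14 sham libraries had 23.9 and 15.98 CPM and PNX libraries 8.77, 16.9 and 11.01 CPM. The log2 differences were -0.11 ± 0.41 (adjusted p = 0.932) and -0.69 ± 0.45 (0.798), and the groups overlapped at both days. The day 7 sign is not settled, since it was 0.23 with a GC offset and 0.05 with total counts.

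Fendrr, the noncoding neighbour of Foxf1, had overlapping groups at both days. Its levels were 19.1, 70.7 and 18.6 CPM in sham and 40.3, 29.4 and 16.1 CPM in PNX libraries at day 7, and 13.4 and 39.4 CPM in sham and 42.9, 24.8 and 51.9 CPM in PNX libraries at day 14. Fendrr had a log2 difference of -0.33 ± 0.54 at day 7 (adjusted p = 0.847; 0.55 without sham day 7 replicate 2) and 0.57 ± 0.61 at day 14 (0.869; 0.00 without replicate 1 and 1.71 without replicate 2 of the sham group). The Foxf1 to Fendrr count ratio had a median of 1.49 and ran from 0.90 to 7.10, with the highest value in sham day 14 replicate 1, the library with the most receptor signal.

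Hoxb6, which like the other Hox genes helps set position along the body axis, was also lower in each PNX library than in any sham library. It was at 10.1, 17.0 and 12.5 CPM in sham and 4.76, 7.75 and 5.52 CPM in PNX libraries at day 7. At day 14 it was at 8.40 and 8.29 CPM in sham and 5.97, 5.02 and 7.19 CPM in PNX libraries. The groups did not overlap at either day, with a narrow gap at day 14, and with total counts the PNX and sham libraries overlapped once both days were joined. On the log2 scale the difference was -1.14 ± 0.41 at day 7 (adjusted p = 0.228) and -0.46 ± 0.46 at day 14 (0.856), and -0.80 ± 0.30 when averaged (0.346). With voom's sample weights the day 7 difference was -1.25 with an adjusted p of 0.0340. Counts were 25 to 86.

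Hoxb5, beside Hoxb6 on the chromosome, had the narrowest relative range of the 4 Hox members, 28.8 to 49.4 CPM. It was at 46.2, 43.0 and 49.4 CPM in sham and 36.5, 35.7 and 28.8 CPM in PNX libraries at day 7, without overlap, and at 31.6 and 38.3 CPM in sham and 36.8, 42.8 and 33.9 CPM in PNX libraries at day 14, with overlap. The log2 difference was -0.46 ± 0.28 at day 7 (adjusted p = 0.561) and 0.11 ± 0.32 at day 14 (0.950; -0.07 with total counts). Non-overlap as lower at day 7 was found for 9.57% of all genes and for 4 members, Tbx4, Tbx5, Hoxb5 and Hoxb6. With total counts it was found for 6.63% of all genes, and Hoxb5 overlapped.

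Hoxa5 was the highest of the 10 genes per kb. It was at 48.9, 61.2 and 54.7 CPM in sham and 45.0, 56.8 and 18.1 CPM in PNX libraries at day 7. At day 14 the sham libraries were at 88.4 and 29.5 CPM, beyond the PNX libraries on both sides, which were at 35.3, 46.6 and 48.998 CPM. The log2 difference was -0.46 ± 0.42 at day 7 (adjusted p = 0.723) and -0.42 ± 0.46 at day 14 (0.869). Without sham day 14 replicate 1 the day 14 difference was 0.55 and the mean of both days 0.04.

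Hoxa4, the lowest Hox member per kb, was the 1 member with a higher mean after PNX at both days. It was at 4.64, 6.23 and 1.88 CPM in sham and 5.27, 3.88 and 4.24 CPM in PNX libraries at day 7, and at 8.06 and 4.39 CPM in sham and 4.85, 9.89 and 9.44 CPM in PNX libraries at day 14. The log2 differences were 0.09 ± 0.54 (adjusted p = 0.962) and 0.40 ± 0.60 (0.904), with overlap at both days, and the day 7 sign turned to -0.27 without sham day 7 replicate 3. Its counts were 13 to 63. Epithelial marker sums were 16431 and 7159 CPM in the PNX day 14 libraries with the highest Hoxa4. Sftpc alone was at 15517 and 6819 CPM in these libraries. Of the 7 epithelial markers, 5 were lower after PNX at day 14, unlike Hoxa4, and the median log2 difference of the 7 was -0.4. The marker sum was 14208 CPM in the other PNX day 14 library, where Hoxa4 was at 4.85 CPM. The sham libraries with the highest Hoxa4 of their groups, day 14 replicate 1 and day 7 replicate 2, had 12402 and 12149 CPM. Sham day 7 replicate 3, the lowest, had 122 CPM. Over the libraries, log2 Hoxa4 and the log2 epithelial sum had a Pearson r of 0.86, a description only. With the endothelial and haematopoietic marker sums r was 0.73 and 0.66. The part of any of these markers in the Hoxa4 values was not tested.

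From day 7 to day 14, no member passed the edgeR test after PNX, after sham or for the difference between the days' PNX effects, where 0%, 0.0187% and 0% of all genes did. At an unadjusted p under 0.05, 0 members were found after PNX, 1 after sham (Tbx3 lower, where 7.94% of genes were) and 1 for the difference between the days (Tbx3 higher, 4.16%). DESeq2 called Tbx3 after sham, where it called 669 of all genes, and no member in the other 2. The voom fit called no member in the 3. Tbx3, Tbx5, Hoxb5 and Hoxb6 were lower in both sham day 14 libraries than in the 3 sham day 7 libraries, as were 11.8% of all genes. With total counts this held for Tbx5 and Hoxb5, and for 12.3% of all genes. With a GC offset it held for Tbx5 alone of the members, and for 10.57% of all genes. Tbx2, Foxf1, Foxf2 and Hoxa4 were then higher in both sham day 14 libraries than in the 3 sham day 7 libraries, as were 13.8% of all genes. Tbx5 also had its PNX day 14 libraries below its PNX day 7 libraries (9.08% of all genes). With total counts Tbx4 did too, as did 17.62% of all genes. With a GC offset Hoxa4 and Hoxb5 had theirs above, as did 6.4% of all genes. The Tbx5 log2 difference from day 7 to day 14 in sham lungs was -0.72 ± 0.35 (adjusted p = 0.363). It rested on which sham day 14 library was kept, at -1.55 (0.0456) without replicate 2 and -0.28 (0.841) without replicate 1. For Tbx4 after PNX it was -0.82 ± 0.45 (0.751; -1.29 to -0.50 over the alternatives).

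**Figure D3:**
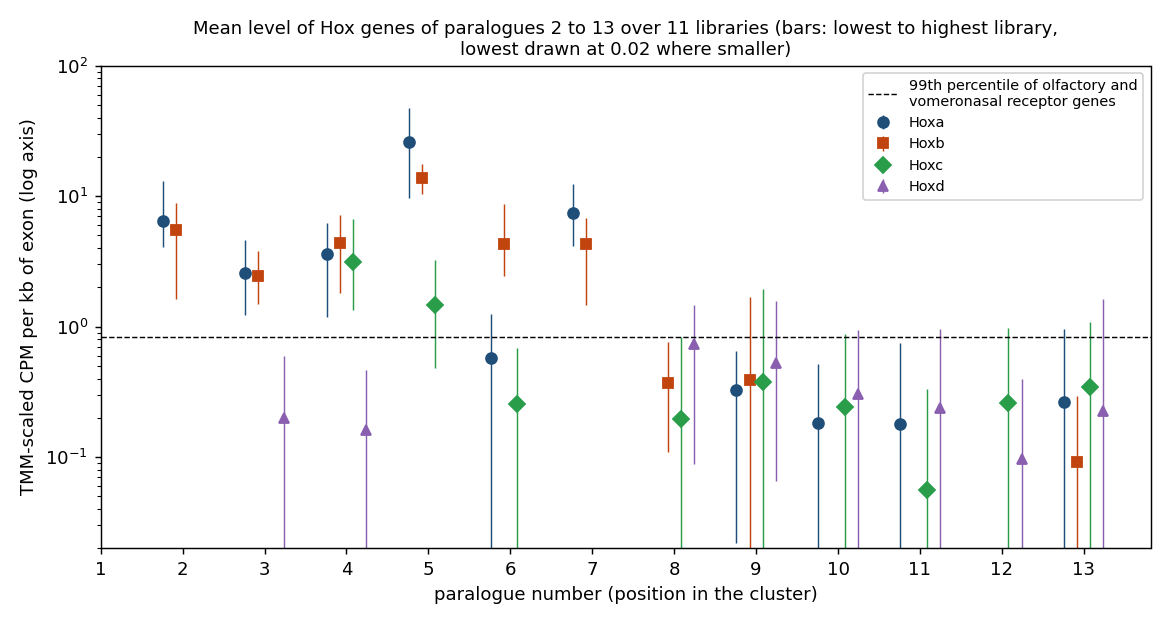
Mean level of the Hox genes of paralogues 2 to 13 over 11 libraries in CPM per kb of exon (log axis), by paralogue number and cluster, with bars from the lowest to the highest library; the dashed line is the 99th percentile of receptor genes, 0.837 CPM per kb. Points above the line are all among paralogues 2 to 7, and the 16 genes of paralogues 9 to 13 lie at or under 0.526 CPM per kb.

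The 4 Hox members sit within a broader anterior pattern. Of 39 Hox genes in the table, 14 had a mean level above the receptor line, among them the 4 members, Hoxa2, Hoxa7, Hoxb2 and Hoxc4. All 14 are among the 23 genes of paralogues 1 to 8, none is in the D cluster, and the 16 genes of paralogues 9 to 13 reached at most 0.526 CPM per kb. Hoxa7 (7.43 CPM per kb), Hoxa2 (6.43) and Hoxb2 (5.46) were the next highest after Hoxa5 and Hoxb5. Of the 35 Hox genes beyond the 4 members, 21 were tested; 13 were higher and 8 lower at day 7, 4 higher and 17 lower at day 14, and none was called. Of these 21, 11 had levels at or under the receptor line. Hoxa2 had a log2 difference of -0.82 ± 0.42 at day 7 (adjusted p = 0.437) and Hoxc4 1.28 ± 0.66 at day 14 (0.747).

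Several families of homeodomain cofactors, MEIS and PKNOX proteins among them, bind DNA together with Hox proteins. All 9 cofactor genes listed were tested and none was called. At day 7, 6 were lower and 3 higher, and at day 14, 4 were lower and 5 higher. Meis1 was at 19.4 CPM per kb, between Hoxa5 and Hoxb5. Pknox2 was at 47.8, 38.9 and 81.6 CPM in sham and 17.7, 12.7 and 20.8 CPM in PNX libraries at day 7, without overlap. Its log2 difference was -1.71 ± 0.48 at day 7 (adjusted p = 0.134; 0.0246 with DESeq2) and -1.26 ± 0.35 in the mean (0.155; 0.0395 with DESeq2, and -0.49 with 0.576 without sham day 14 replicate 2). Meis1 and Meis2 had higher means after PNX at day 14, by 1.30 ± 0.48 (adjusted p = 0.601) and 1.05 ± 0.41 (0.625); Meis1 was at 70.5 and 188 CPM in sham and 234, 313 and 409 CPM in PNX libraries there. The Meis1 difference was 0.75 without replicate 1 and 2.32 without replicate 2 of the sham group, and that of Meis2 0.60 and 1.89.

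Of 13 other T-box genes, 10 were tested, and 3 stood above the receptor line: Mga, Tbx18 and Tbx19. Of the 10, 9 were higher at day 7 and 9 lower at day 14, none called, and 7 of the 10 were at or under that line. Tbx18, the highest after Mga at 2.16 CPM per kb, had a log2 difference of 0.88 ± 0.47 at day 7 (adjusted p = 0.473) and 0.71 ± 0.36 in the mean (0.530). Of 18 other forkhead genes, 17 were tested and none was called, with 9 lower at day 7 and 10 lower at day 14. Foxn3 (14.9 CPM per kb) and Foxp1 (11.6) were the most abundant, and their differences at day 14 were 1.13 ± 0.50 (0.701) and 0.87 ± 0.36 (0.665). Foxn3 was at 52.7 and 199 CPM in the sham libraries there, and its difference was 0.47 (0.919) without replicate 1 and 2.54 (0.0491) without replicate 2 of that group; for Foxp1 it was 0.60 and 1.34. Foxl1, a hedgehog target in gut mesenchyme, was at 5.34, 18.5 and 19.3 CPM in sham and 3.57, 3.05 and 3.85 CPM in PNX libraries at day 7, with a log2 difference of -2.02 ± 0.67 (0.194). Foxm1, a factor of dividing cells, was at 0.56, 1.93 and 2.32 CPM in sham and 7.65, 6.92 and 3.47 CPM in PNX libraries at day 7, without overlap. Its differences were 1.89 ± 0.77 at day 7 (0.294) and -2.88 ± 0.91 at day 14 (0.449; -3.42 to -1.69 over the alternatives), from a mean level of 0.52 CPM per kb, under the receptor line.

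The 22 genes listed for acting upstream or downstream of the members in lung development were all tested. Of them 15 were lower and 7 higher at day 7, 12 lower and 10 higher at day 14, and 15 lower and 7 higher in the mean. At an unadjusted p under 0.05, 9 were lower and 2 higher at day 7 and in the mean, where 8.07% and 6.37% of all genes were lower at that p. At day 14, 2 were lower and 2 higher, and 3.63% of all genes were lower. The mean includes the day 7 values. The list's median log2 differences were -0.75, -0.04 and -0.49, against 0.03, -0.07 and -0.04 for all genes, of which 48.3%, 54.8% and 53.4% were lower.

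Of the 22, 1 passed the edgeR test in the mean of both days, where 0.194% of all genes did, and it rose. Wisp1 (Ccn4), a secreted matrix protein gene and a target of Wnt signals, was at 30.9, 33.9 and 29.3 CPM in sham and 60.8, 63.1 and 51.1 CPM in PNX libraries at day 7. At day 14 it was at 17.1 and 31.1 CPM in sham and 69.4, 127 and 77.8 CPM in PNX libraries, so all 6 PNX libraries were above all 5 sham libraries, as for 0.637% of all genes. For Wisp1 the log2 difference was 0.89 ± 0.33 at day 7 (adjusted p = 0.235) and 1.90 ± 0.39 at day 14 (0.0905). Averaged, it was 1.40 ± 0.25 (adjusted p = 0.0228). The call in the mean was lost with voom's sample weights (1.34, adjusted p = 0.105), without the 3 libraries of highest receptor signal (1.23, 0.0586), and when 1 library was left out: replicate 3 of day 7 sham (0.0592), replicate 1 of day 7 PNX (0.0695), or replicate 2 (0.111) or 3 (0.0693) of day 14 PNX. Over all alternatives the size was 1.21 to 1.70.

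Tcf21, a factor of alveolar fibroblasts that is also in the marker list, was at 16.7, 33.7 and 24.6 CPM in sham and 10.5, 13.01 and 9.64 CPM in PNX libraries at day 7, and at 29.9 and 30.0 CPM in sham and 12.5, 15.7 and 8.09 CPM in PNX libraries at day 14. All 6 PNX libraries were below all 5 sham libraries, as for Tbx4. The mean log2 difference was -1.24 ± 0.27 (adjusted p = 0.0654; 0.00406 with DESeq2). Wnt2, a mesenchymal signal downstream of Tbx4 and Tbx5, had differences of -1.38 ± 0.38 at day 14 (0.294) and -0.99 ± 0.25 over both days (0.114; 0.01998 with DESeq2). Without sham day 14 replicate 2 these were -0.75 (0.315) and -0.70 (0.295). At day 7 the hedgehog receptor and target gene Ptch1 had a difference of -2.10 ± 0.49 (0.0853; 0.00688 with DESeq2) and the ligand gene Wnt2b one of -2.39 ± 0.61 (0.106; 0.0141 with DESeq2). Wnt2b was at 7.73, 6.01 and 24.9 CPM in sham and 1.53, 2.77 and 3.08 CPM in PNX libraries there, and without sham day 7 replicate 3 its difference was -1.48 (0.746). For Ptch1 without that library it was -1.77 (0.519). Ptch1 was at 8.996, 18.9 and 24.8 CPM in sham and 3.57, 4.43 and 4.24 CPM in PNX libraries at day 7; its highest values were in the sham day 7 libraries in which Tbx3 was high. Il33 (199 CPM per kb), Cdkn1a (64.7) and Pdgfra (63.5) were the most abundant of the 22, each above all 10 members.

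**Figure D4:**
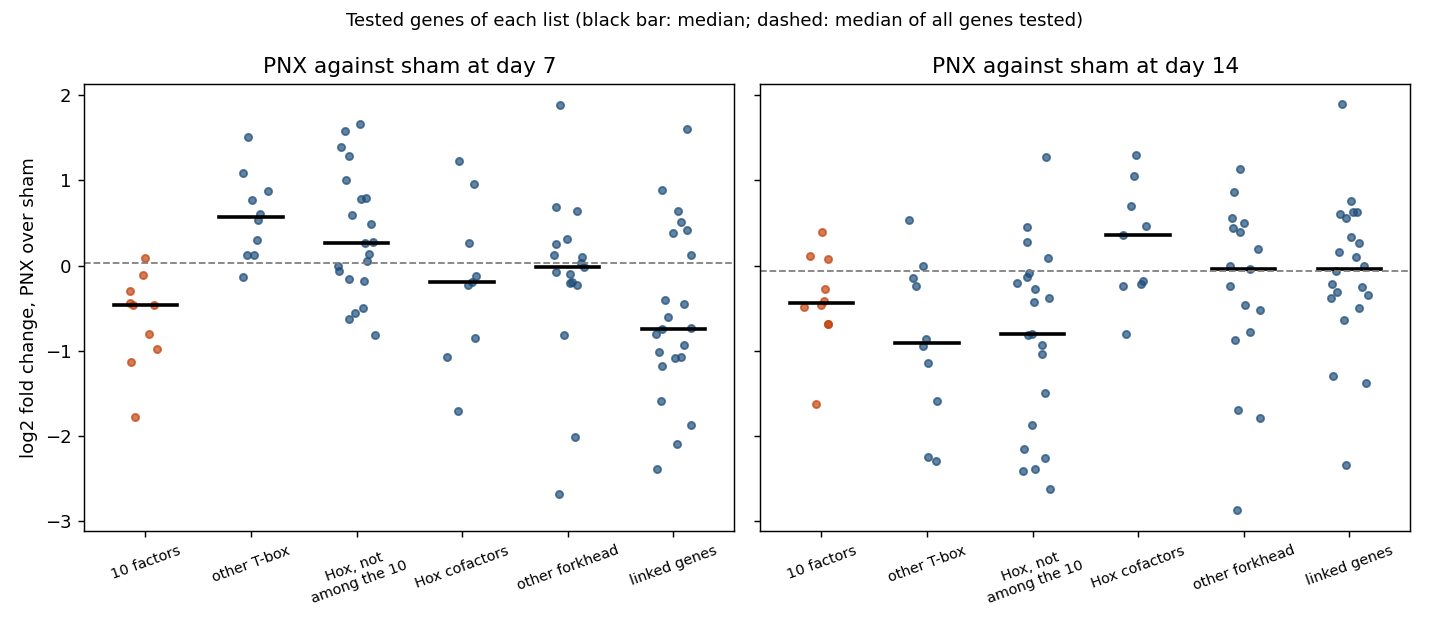
Log2 difference of PNX against sham for every tested gene of each list, at day 7 and day 14; black marks are list medians and the dashed line is the median of all genes (0.03 and -0.07). The medians of the members are -0.46 and -0.44, and that of the 22 linked genes is -0.75 at day 7 and -0.04 at day 14.

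The genes most like each member over the 11 libraries were found by Pearson's r of log2 CPM among 7258 or 7259 other genes with a mean log2 CPM of at least 4. Values are a description, since the libraries share groups, depth and base composition. For Tbx4 they were Cnn2 (r = 0.95, rho = 0.94), Gja5 (0.92, 0.94) and Trip6 (0.92, 0.85). For Tbx5 they were Rasl12 (0.98, 0.94), Taf8 (0.97, 0.95) and Mob2 (0.96, 0.94). For Tbx3 they were Arhgef2 (0.97, 0.87), Adipor1 (0.97, 0.73) and Adam15 (0.97, 0.75), and for Tbx2 Cenpb (0.94, 0.76), Zfp740 (0.87, 0.60) and Tet3 (0.84, 0.70). Tbx2, Tbx3 and Tbx5 were among the genes searched, and none was among the 3 genes most like another member. Tbx4 had a mean log2 CPM under 4, so it could not be found as a match.

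For Foxf1 they were Ifrd1 (0.87, 0.73), Ccdc85b (0.83, 0.56) and Gadd45b (0.82, 0.71), and for Foxf2 Drap1 (0.88, 0.83), Rasl11b (0.86, 0.85) and Ing1 (0.84, 0.91). For Hoxb5 they were Nhlrc2 (0.91, 0.90), Tnfrsf19 (0.91, 0.96) and Nudcd3 (0.90, 0.90), and for Hoxb6 Lbh (0.90, 0.78), Gtf3c1 (0.90, 0.86) and Polr3gl (0.88, 0.88). Hoxa5 had the lowest leading values, Lysmd2 (0.81, 0.67), Bloc1s4 (0.80, 0.65) and Plekho1 (0.80, 0.63). For Hoxa4 they were Cyp4b1 (0.93, 0.93), Cldn18 (0.91, 0.74), a tight junction gene of alveolar epithelium, and Ccdc68 (0.90, 0.82).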

How the data were processed

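RNA of sorted lung mesenchymal cells was extracted with a micro kit and made into libraries with a low-input kit, per the labels' protocols. The authors deposited raw read counts per gene for 11 libraries; per the submitters' processing notes the build was mm10 and bcl2fastq 2.20.0.422 was used. Aligner, counting tool and strand setting are not given in the sources used here. Counts were tested as deposited with edgeR 4.0.16 (R 4.3.3): TMM factors, a filter on low counts by group that kept 16011 genes and removed 8400, robust quasi-likelihood fits of 4 group means over all 11 libraries (7 residual degrees of freedom), and Benjamini-Hochberg adjustment over all genes tested at 0.05. SE is the log2 difference divided by the square root of F. CPM were TMM-scaled; CPM per kb used GENCODE M21 exon lengths, matched for 98.5% of rows. Alternatives used DESeq2 1.42.0, limma 3.58.1 (voom), other scalings and filters, GC and background terms, and libraries left out. The fit was tested on simulated data. The members, the gene lists and the rule for naming genes (of each list, those past the threshold, the 3 of smallest p in each PNX comparison and the 3 of highest level per kb; for likeness, the 3 genes of highest r) were chosen with earlier results of these data known. Some items that the rule would name are not reported here.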

Additional observations from a re-analysis of the deposited data

How the results depend on the processing

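Counts of tested genes called depended on the processing in each comparison. As reported, edgeR called 6 genes between PNX and sham lungs on day 7, 1 on day 14, 31 averaged over the days, 0 for the difference between the days' PNX effects, and 0 and 3 from day 7 to day 14 after PNX and after sham. Counts that moved by more than 1.5 times follow in that order. DESeq2 called 457, 109, 304, 102, 58 and 669 genes. The voom fit with sample weights called 826 at day 7, 0 at day 14, 7 averaged, 111 after PNX and 0 after sham. RLE size factors called 2 at day 14. Total counts called 12, 3, 50, 1 and, after sham, 0. Without the filter on low counts 178, 27, 102, 8, 8 and 102 were called, and with a minimum of 1 CPM in 5 libraries 1 after sham. A GC offset gave 2, 5 and 48, and 0 after sham. The receptor signal as a covariate gave 2, 35 and 77, and 1 after sham. Without the 3 libraries of highest receptor signal 22, 23, 98, 3 and, after sham, 16 were called. A fit of only the groups compared gave 52 at day 14, 83 after PNX and 0 after sham. Leaving out 1 library at a time gave 3 to 425, 0 to 74, 8 to 192, 0 to 370, 0 to 2 and 1 to 958 genes, and assumes for a sham day 14 group of 1 library that it varies like the others.

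Replicate numbers were not treated as pairs. Deviations from the group mean correlated at -0.12, 0.53 and 0.34 between same-numbered day 7 libraries and at 0.10 and 0.18 at day 14, and sham day 7 replicate 1 correlated best with another number. With the replicate block 0 genes were called at day 14, 20 averaged, 1 for the difference between days, 1 after PNX and 1 after sham; with the GC offset and the block together it was 2 at day 14, 20 averaged and 0 after sham. No member was called with the block.

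Members were called in few settings. At day 7, 0 were called as reported, 1 with DESeq2, 2 with voom, 1 without the filter and 0 to 1 with a library left out. Averaged over the days DESeq2 called 1. After sham, DESeq2 called 1 and leaving out a library 0 to 1. Signs turned for some members, those with differences as large as -0.44 included. The Tbx2 difference at day 7 was 0.07 with the GC offset, 0.10 with offset and block and -0.74 to 0.11 with a library left out. Foxf1 at day 7 was 0.07 with voom. Foxf2 at day 7 was 0.05 with total counts, 0.23 with the GC offset, 0.26 with offset and block and -0.52 to 0.12 with a library left out. Hoxa4 at day 7 was -0.09 with the receptor covariate and -0.27 to 0.41 with a library left out. At day 14 Tbx3 was -0.11 and Hoxb5 -0.07 with total counts, Hoxa5 was 0.59 without the 3 libraries of highest receptor signal, and with a library left out Tbx5 was -0.72 to 0.53, Hoxa5 -0.87 to 0.55 and Hoxb5 -0.03 to 0.41. Averaged, Hoxa5 was -0.70 to 0.04. Fendrr at day 7 was 0.42 with voom, 0.05 with offset and block, 0.56 without the 3 libraries and -0.73 to 0.55 with a library left out. Foxf1 and Foxf2 at day 14 kept their sign but ranged from -0.93 to -0.28 and -0.99 to -0.35, Tbx2 from -0.70 to -0.16 and Hoxa4 from 0.13 to 0.90; at day 7 Hoxa5 ranged from -0.96 to -0.16, Hoxa2 from -1.11 to -0.33 and Tbx18 from 0.46 to 1.22. The cause was not tested. Scaling by total counts moved the median of all genes by 0.18 at day 7 and -0.19 at day 14. The counts of groups that do not overlap under other scalings were added after seeing the data.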
